A study of Mus musculus with 8 samples.

Results

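Plasmacytoid dendritic cells (pDCs) carry Ly6C, the surface antigen by which the monocytic cells of this study were sorted, and 8 genes known for these cells were followed here in the expression table of the series. They are *Siglech*, *Ccr9*, *Tcf4*, *Klk1*, *Runx2*, *Spib*, *Pacsin1* and *Lag3*, taken from the table by their symbols, 8 of 23084 genes in all. The study sequenced total RNA of CD11b+Ly6C+ (monocytic) and CD11b+Ly6G+ (granulocytic) myeloid cells sorted from spleens of C57BL/6 mice of 6 to 8 weeks, wt or Lmna KO. Each of the 4 groups, wt CD11b+Ly6C+, wt CD11b+Ly6G+, Lmna KO CD11b+Ly6C+ and Lmna KO CD11b+Ly6G+, had 2 samples, 8 in all, and the question of the study was how loss of lamin A/C acts on myeloid differentiation. In the Lmna KO mice (*Lmna* MyeKO), a floxed *Lmna* gene was deleted by LysM-Cre, a Cre driven by the lysozyme gene *Lyz2*, which is active in monocytes, macrophages and granulocytes. Whether the animals of these libraries bore tumors, and whether cells of several mice were pooled, is not given in the sources used here.

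pDCs are rare immune cells of blood, spleen, lymph node and bone marrow that sense viral RNA and DNA in endosomes through Tlr7 and Tlr9 and answer with large amounts of type I interferon. Their identity is held by the E protein Tcf4 (E2-2), which the inhibitor Id2 antagonizes, and mouse pDCs are recognized by Siglec-H and Bst2 on their surface. They carry little CD11b, the integrin chain encoded by *Itgam*, in contrast to monocytes and neutrophils. Most of the genes named here are also used by other cells: *Spib* by B cells, *Lag3* by activated T and NK cells, *Ccr9* by thymocytes and gut-homing T cells, *Runx2* by bone-forming cells and *Klk1* by kidney and salivary gland.

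The values used are the authors' mean signal, an average over samples of counts divided by size factors, with 1 value for a gene. Which of the 8 samples entered the mean is not given in the sources used here, and the values carry no SD, no n and no separate value for wt and Lmna KO. No comparison between genotypes or subsets was therefore made, and no order of levels can be held against the spread of replicates. Sequencing depth per sample cannot be read from these values. To set genes beside each other, the mean signal was divided by the length of the longest annotated transcript in kb (1000 bases). This level was placed among the levels of the 15697 protein-coding genes with a value here. Their median was 82.7 and their quartiles were 5.95 and 326. Protein-coding genes without a value did not enter this median or the percentiles. In a mean over sorted bulk RNA, fewer cells of a type and less RNA per cell cannot be told apart.

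Granulocyte transcripts were abundant in the mean, with *S100a8* and *S100a9* taking 4.51% of the summed signal over all genes. The sorting markers were abundant, with a level of 11546 for *Itgam*, 5378 for *Ly6c2* and 8346 for *Ly6g*. The targeted gene *Lmna* had a level of 20.1, which checks nothing about the deletion because both genotypes may stand in the mean.

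*Klk1* (ENSMUSG00000063903, chr7:44225360-44229618 in mm10, plus strand), the tissue kallikrein that releases kinins from kininogen, is the member whose reads are hardest to assign. It lies in a cluster of related genes on chromosome 7 that share stretches of sequence with it. Of the 905 words of 50 bases in its longest transcript, 257 (28.4%) also occurred in a transcript of another gene, and all 257 occurred in *Klk1b* genes. Of the 13 *Klk1b* genes, 12 shared at least 1 such word with *Klk1*. At 100 bases, 52 of 855 words (6.08%) were shared, with 2 *Klk1b* genes. The closest relative was its neighbor *Klk1b5* (chr7:44215945-44220703), identical to *Klk1* at 745 of 783 coding bases (95.1%) and over an unbroken run of 145 bases. The 205 bases around this run are printed below from the reference genome, 5′ to 3′ on the coding strand, for *Klk1* and *Klk1b5* (coding bases 316 to 520 of each) and for *Klk1b27* (chr7:44052290-44056712, its coding bases 322 to 526), the *Klk1b* gene with a value here. Capitals mark bases that differ from *Klk1* at the same place in the print, with no gap allowed, 7 in *Klk1b5* and 34 in *Klk1b27*. The coding sequence of *Klk1b27* is longer, at 789 bases. Near its 5′ end the printed *Klk1b27* stretch matches *Klk1* better when shifted by a few bases. Many capitals there thus reflect the ungapped print, and the count of 34 overstates how far the 2 genes differ.
Klk1: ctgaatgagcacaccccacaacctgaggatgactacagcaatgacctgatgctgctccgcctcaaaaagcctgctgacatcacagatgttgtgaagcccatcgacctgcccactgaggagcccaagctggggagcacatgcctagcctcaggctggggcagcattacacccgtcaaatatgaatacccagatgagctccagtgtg
Klk1b5: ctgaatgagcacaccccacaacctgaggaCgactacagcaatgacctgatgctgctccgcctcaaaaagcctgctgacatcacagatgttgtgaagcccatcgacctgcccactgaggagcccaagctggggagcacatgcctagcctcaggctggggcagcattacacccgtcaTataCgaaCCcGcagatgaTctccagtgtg
Klk1b27: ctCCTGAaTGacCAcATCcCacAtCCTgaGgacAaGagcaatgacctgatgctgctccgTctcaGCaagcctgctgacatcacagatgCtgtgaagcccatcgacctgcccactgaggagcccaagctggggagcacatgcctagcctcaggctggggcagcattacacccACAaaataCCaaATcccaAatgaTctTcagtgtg
A lower-case stretch of 82 bases is common to the 3 genes, and a short read from within it could come from any of them. The mean signal was 28.7 for *Klk1* and 3.09 for *Klk1b27*. *Klk1b5* had no value here. How the estimated counts shared such reads among the genes is not known from the table, and the value of *Klk1* is uncertain to that extent.

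For the other 7 members, between 0% and 0.871% of the words of 50 bases occurred in another gene, the highest share being that of *Lag3*, and none did at 100 bases. Of the exon bases of *Ccr9*, 18.8% overlapped a transcript on the opposite strand (*AC165425.1*), and 5.87% of those of *Runx2* overlapped the antisense gene *Runx2os1*, whose mean signal was 4.29. The strand setting of the libraries is not given in the sources used here, so that reads of these overlaps cannot be told apart. The remaining members shared no exon base with another gene except *Ccr9* with *Gm17200* and *Slc6a20a* (269 and 22 bases).

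The 8 pDC genes spanned a wide range. Their level was highest for *Spib*, at 1091, and lowest for *Ccr9*, at 20.1. In falling order the genes were *Spib*, *Lag3*, *Runx2*, *Tcf4*, *Siglech*, *Pacsin1*, *Klk1* and *Ccr9*. The first 4 lay above the median protein-coding gene and the last 4 below it, and the median of the members was a level of 76.1, at percentile 48.8 of protein-coding genes. Summed, the members held a mean signal of 6133, or 0.0243% of the table. The order depended on the length used: with 3 length measures (longest transcript, merged exons, median transcript), *Spib* came first and *Klk1* and *Ccr9* came last in each, whereas *Tcf4* stood between *Runx2* and *Siglech* with the longest transcript, below *Siglech* with merged exons and next to *Spib* with the median transcript.

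**Figure D1:**
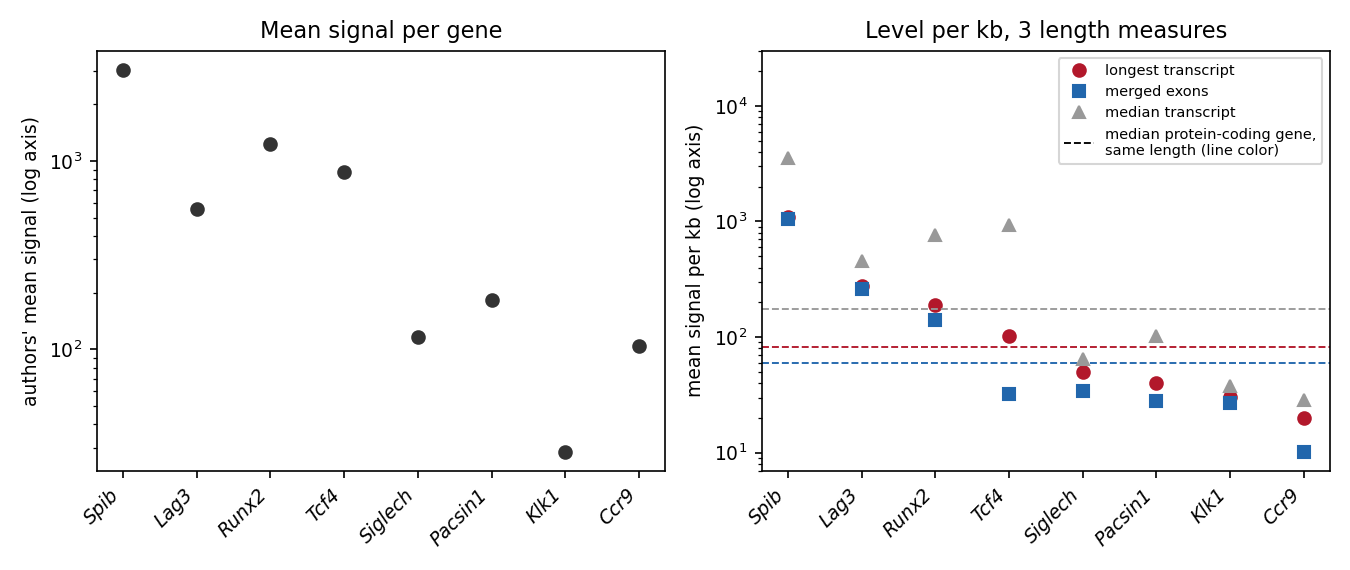
The left panel plots the authors' mean signal of each of the 8 pDC genes on a log axis. The right panel plots the mean signal per kb on a log axis with 3 length measures (red circles, longest transcript; blue squares, merged exons; grey triangles, median transcript), with a dashed line of the same color at the median protein-coding gene by that length (82.7, 60.2 and 176). No error bars are drawn because each gene has 1 mean value. *Spib* is highest and *Ccr9* lowest per kb with each length, and *Tcf4* is the gene whose level depends most on it.

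Among the surface receptors, *Siglech* (ENSMUSG00000051504, chr7:55768178-55778925, plus strand), a receptor of the Siglec family that marks mouse pDCs, had a mean signal of 115.9. Its level of 50.4 lay at percentile 43.2, with 8922 protein-coding genes higher. Across the length measures its level ran from 34.3 to 64.6. It stood low among its own family. The myeloid Siglecs *Cd33* and *Siglece* had levels of 4452 and 3336, 88.4 and 66.2 times that of *Siglech* (88.4 to 210.4 and 66.2 to 97.4 over the length measures). *Cd22* and *Siglecg*, the inhibitory Siglecs of B cells, had levels of 1286 and 510. *Siglec1*, known from macrophages, had 249, and *Siglecf*, known from eosinophils, had 200. *Mag*, a myelin protein, had a level of 52.4, and its ratio to *Siglech* changed side with the length used (0.914 to 1.04). *Siglec15*, known from osteoclasts, was lower still at 0.718. The adaptor *Tyrobp* (DAP12), through which Siglec-H signals, had a level of 52364, at 1039 times *Siglech* (842 to 1368 over the length measures); this adaptor also serves many receptors of monocytes, neutrophils and NK cells.

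*Ccr9* (ENSMUSG00000029530, chr9:123678439-123784330, plus strand), the receptor for the gut and thymus chemokine Ccl25 and a mark of mature pDCs, had a mean signal of 104.3. Its level of 20.1 lay at percentile 33.5, the lowest of the members, with a range of 10.2 to 28.8 over the length measures. Of the 8 other CC chemokine receptors described here, 5 had higher levels. *Ccr1*, used by neutrophils and monocytes, had 4868, which is 242 times *Ccr9* (169 to 479 over the length measures). *Ccr3*, known from eosinophils, had 859. *Ccr2*, by which monocytes leave the bone marrow, had 437, or 21.8 times *Ccr9* (21.8 to 36.4). The lymph node receptor *Ccr7* had 426 and the mucosal receptor *Ccr6* had 219. *Ccr10*, *Ccr4* and *Ccr8* had 6.74, 5.85 and 3.95. Both chains of the gut-homing integrin were abundant, *Itga4* with a level of 827 and *Itgb7* with 1035, while the ligand *Ccl25* had 27.6.

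*Lag3* (ENSMUSG00000030124, chr6:124904361-124911705, minus strand), a CD4-like receptor that binds MHC class II and restrains T cells, had a mean signal of 553.0. Its level of 276 put it at percentile 71.9, second of the members by the longest transcript, with a range of 262 to 456. It lies 16139 bases from *Cd4* on chromosome 6 with no protein-coding gene between them. *Cd4* itself, which T cells and mouse pDCs share, had a level of 244, and which of the pair stood higher depended on the length (*Lag3* over *Cd4*, 0.568 to 1.39). The other inhibitory receptors of lymphocytes were lower with every length: *Havcr2* had a level of 82.7, *Tigit* 56.2, *Pdcd1* 34.9 and *Ctla4* 23.8. Over the length measures, *Lag3* was 3.17 to 5.32 times *Havcr2*, 4.67 to 8.11 times *Tigit*, 7.51 to 13.05 times *Pdcd1* and 6.84 to 13.3 times *Ctla4*. Its ligands were among the abundant genes, with levels of 10682 for *H2-Ab1*, 6773 for *H2-Eb1*, 5311 for *H2-Aa* and 9883 for *Lgals3* (galectin-3). The ligand *Fgl1* had no value here.

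**Figure D2:**
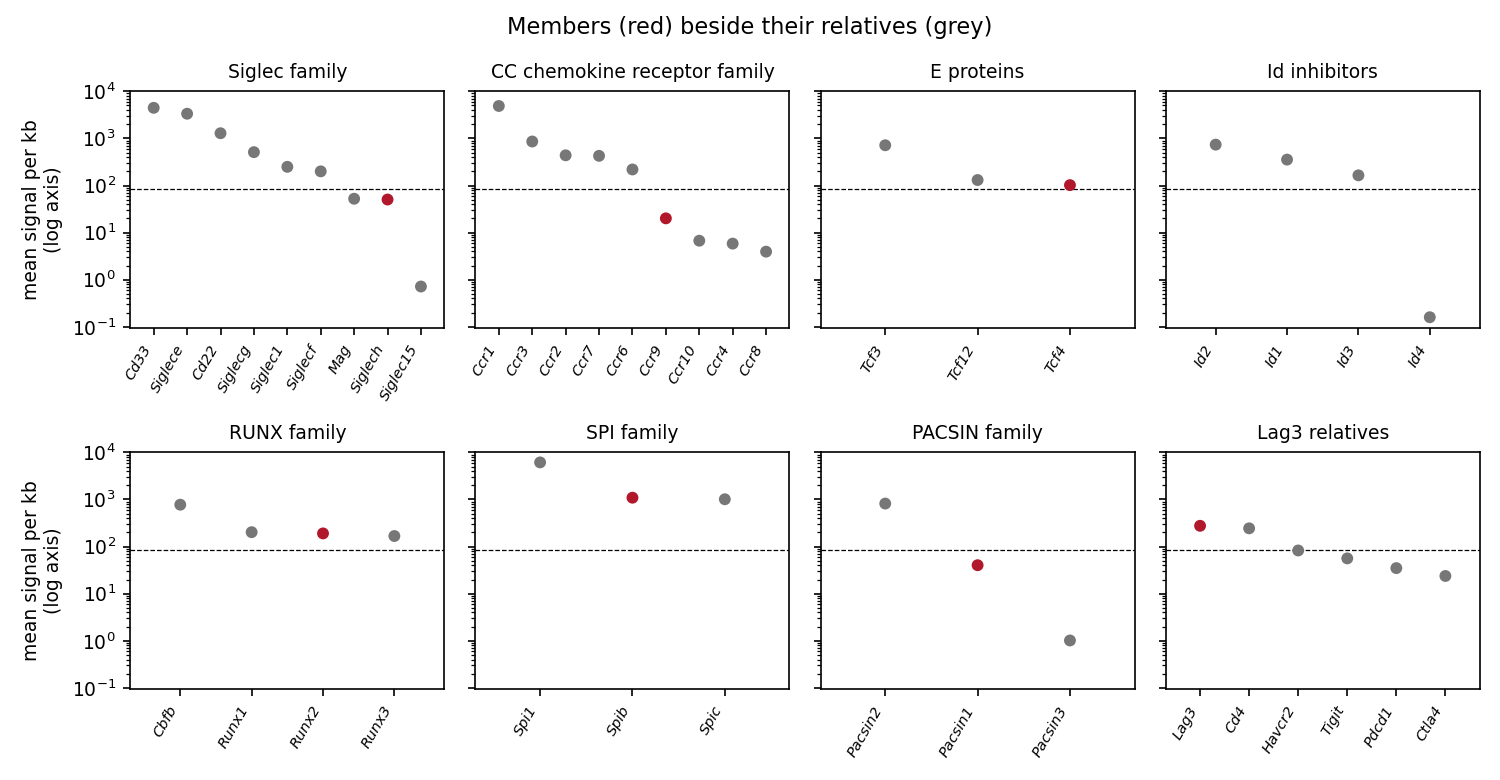
Mean signal per kb of the longest transcript on a log axis, for the families of the members, with members in red and relatives in grey. The dashed line is the median protein-coding gene (82.7), and each point is 1 mean value without error. *Siglech*, *Ccr9* and *Pacsin1* lie below it beside relatives that are far above, *Runx2* lies among its relatives, and *Lag3* leads its panel.

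Among the transcription factors, *Tcf4* (ENSMUSG00000053477), the E protein that specifies pDCs, had a mean signal of 873.5. Its level was 102 with the longest transcript, at percentile 53.5, but 31.9 with merged exons and 928 with the median transcript, a 29.1-fold span. The annotation gives it 62 transcripts, many of them short, and its place among the genes is therefore not settled by these values. The same holds beside its relatives. *Tcf3* (E2A), the E protein of early B cells, had a level of 714 and *Tcf12* (HEB) had 131, and the ratio of *Tcf3* to *Tcf4* ran from 0.803 to 16.4 and that of *Tcf12* to *Tcf4* from 0.498 to 1.66. *Id2*, the inhibitor that opposes the pDC fate, had a level of 736 and was above *Tcf4* with each length, by 1.23 to 18.6 times. *Id1* had 355 and *Id3* 164, while *Id4* was close to 0, with a level of 0.160.

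*Spib* (ENSMUSG00000008193, chr7:44525993-44532071, minus strand), an ETS factor of B cells and pDCs, was the most abundant member by far. Its mean signal of 3042.9 gave a level of 1091, at percentile 91.7, with 1298 protein-coding genes higher, and it was 21.7 to 55.2 times *Siglech* over the length measures. *Spi1* (PU.1), the related factor of the myeloid lineage, had a level of 6124, or 5.61 times *Spib* (4.36 to 6.04 over the length measures). *Spic*, the relative found in red pulp macrophages, had 1011, and *Spib* was 1.08 to 2.40 times as high. *Spib* lies 296 kb from *Klk1* on chromosome 7, with 15 protein-coding genes between them, and 11.2 Mb from *Siglech*.

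*Runx2* (ENSMUSG00000039153, chr17:44495987-44814797, minus strand), a Runt factor by which pDCs leave the bone marrow, had a mean signal of 1231.1. Its level was 190.5, at percentile 65.0, with a range of 139 to 766. The 3 Runt factors were close to each other, *Runx1* at 202 and *Runx3* at 168, and both ratios changed side with the length used (*Runx1* over *Runx2*, 0.610 to 1.06, and *Runx2* over *Runx3*, 0.481 to 1.135). Their common partner *Cbfb* had a level of 775, above *Runx2* with each length, by 1.18 to 4.62 times.

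*Pacsin1* (ENSMUSG00000040276, chr17:27655509-27711482, plus strand), a membrane-bending adaptor of neurons and pDCs that takes part in the interferon answer to Tlr7 and Tlr9, had a mean signal of 184.0. Its level was 40.3, at percentile 40.3, with a range of 28.2 to 103. The broadly used *Pacsin2* had 819, or 20.3 times *Pacsin1* (20.3 to 34.3 over the length measures), and the muscle form *Pacsin3* had 1.02. *Klk1* had the smallest mean signal of the 8 members. Its level was 30.1, at percentile 37.3, with a range of 26.7 to 38.1. Of 26 annotated kallikrein genes, 3 had a value here, and *Klk8*, a serine protease of skin and brain, was the highest of them at 51.4, or 1.71 times *Klk1* (1.65 to 2.40 over the length measures). *Klk1b27* had a level of 3.47, so that *Klk1* was 8.67 times as high (7.68 to 10.95).

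Another 15 genes known from pDCs but not among the members all had values, with a median level of 163, and 10 lay above the median protein-coding gene. These are mostly genes with wide use. *Plac8* had a level of 4892, *Ly6d* 2967 and the endosomal nuclease *Pld4* 2116. *Bst2* (tetherin, the PDCA-1 antigen), which interferon induces in many cells, had 1031 and was 20.5 times *Siglech* (20.5 to 26.4 over the length measures). *Irf8*, a factor of monocytes, B cells and dendritic cells, had 994. The transcriptional repressor *Zeb2* had 334, *Bcl11a* of B cells and pDCs 163 and the sodium pump subunit *Atp1b1* 113. *Cbfa2t3* and *Dntt*, the terminal transferase that some pDCs share with early lymphocytes, had 60.7 and 58.3. The 3 genes below *Siglech* with the longest transcript were *Cox6a2* at 45.5, *Cd300c* at 17.0 and *Upb1* at 6.49.

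Of 18 genes of nucleic acid sensing and interferon response, 13 had values, and all 13 lay above the median protein-coding gene, with a median level of 874. The receptors *Tlr7* and *Tlr9* had 842 and 264, and their chaperone *Unc93b1*, which carries both to the endosome, had 4936. The endosomal transporter *Slc15a4* had 449. Of the signaling proteins below the receptors, *Myd88* had 2281, *Irak4* 545, *Irak1* 522 and *Traf6* 187, the lowest of the list. The factor *Irf7*, on which the interferon output of pDCs depends, had 1899. The kinase *Syk*, which acts below DAP12, had 4195, and the receptor chains *Ifnar1* and *Ifnar2* had 874 and 1003. The ligand genes *Ifna1*, *Ifna2*, *Ifna4*, *Ifna5* and *Ifnb1* had no value here. Of 18 annotated type I interferon genes, *Ifnz* was the 1 with a value, a mean signal of 0.309. Monocytes and macrophages use most of this list as well.

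The levels of the members were set beside those of markers of other cells that the sort could hold. Which cells the signal of the members came from was not tested. The medians of 6 of 8 lists of other cell types were higher than that of the members with the longest transcript, and of all 8 with merged exons. The neutrophil list had a median level of 85972, from *Ly6g* at 8346 and *Cxcr2* at 13070 up to *S100a8* and *S100a9*. Macrophage genes had a median of 6603, with *Hmox1* at 13595 and *C1qb* at 9704 at the top and *Mertk* at 620 and *Spic* at 1011 at the foot. Monocyte genes had a median of 758, from *Cx3cr1* at 157 and *Fcgr1* at 304 to *Itgam*, which neutrophils also carry.

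Lymphocyte genes were present too. The B cell list had a median of 1138, with *Cd79a* at 4065 (80.7 times *Siglech*, 62.9 to 119 over the length measures) and *Cd79b* at 3166 at the top, and *Ebf1* at 131 and *Cr2* at 377 at the foot. Plasma cell genes had a median of 468, with *Jchain* at 4634 and *Xbp1* at 1761 but *Tnfrsf17* at 30.1 and *Prdm1* at 39.0. T cell genes had a median of 186, between *Bcl11b* at 36.6 and *Tcf7* at 422. *Spib* is also known from B cells and *Lag3* from T cells. The share of each cell type in the values of both genes was not tested.

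The lists whose medians stood below that of the members were those of NK cells, at 50.1, and of conventional dendritic cells, at 38.0. Among NK cell genes, *Ncr1* had 26.99 and *Eomes* 33.4, with *Nkg7* at 539. Among genes of conventional dendritic cells, *Xcr1* had 3.77 and *Zbtb46* 8.85, both below every pDC member, while *Itgax* (CD11c), which macrophages and monocytes also use, had 643. With the longest transcript, the level of *Siglech* was above 4 of 8 NK cell genes and 6 of 10 conventional dendritic cell genes. It was below 9 of 10 T cell genes and 4 of 6 plasma cell genes. It was also below all 10 genes of each of the neutrophil, macrophage, monocyte and B cell lists. These counts were taken with that length only.

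**Figure D3:**
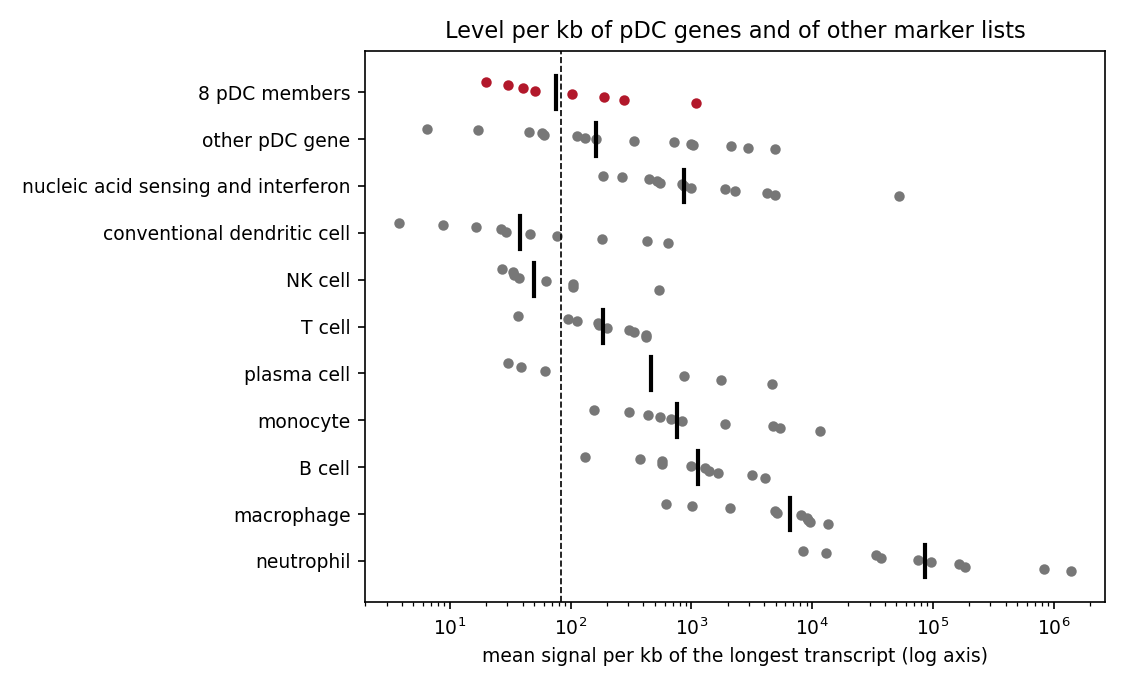
Mean signal per kb of the longest transcript on a log axis for the 8 pDC members (red) and for the genes of the other lists (grey), each point 1 gene and each black bar the median of its list. The dashed line is the median protein-coding gene (82.7). The members' median of 76.1 lies above those of NK cell genes (50.1) and conventional dendritic cell genes (38.0) and below the others.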

How the data were processed

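Total RNA of sorted splenic myeloid cells was sequenced by the authors (8 samples, grouped here by their titles because the cell-marker label is the same in all). Per the labels and methods, reads were trimmed with Cutadapt 1.14, mapped to mm10 with STAR 2.5.2b in its two-pass mode, quantified with RSEM 1.3.0 on GENCODE M12 and analysed with DESeq2 1.20.0. The signal deposited by the authors is the mean of counts divided by size factors. The table's 6 columns of the authors' own comparison (log2 fold change, its standard error, test statistic, p-value, adjusted p-value, signed fold change) were not used, so no test was run.

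Lengths, positions and coding sequences came from GENCODE M21, also on mm10, in which 23004 of 23084 identifiers were found. Where a symbol stood on several rows (28 symbols, *Itgam* among them), the row with the highest signal was used. Levels, percentiles and shared words were computed with Python 3.11.15 and pandas 2.3.3. The step that places levels at percentiles was checked on simulated data. Other lengths and backgrounds were tried as 4 alternatives. Named genes were the members, their families, the pDC and sensing lists, and up to 2 highest and 2 lowest genes of each list of another cell type; kallikreins were named as closest to *Klk1* or with a value. The members and lists were chosen with earlier results of these data known. Of the genes listed at the outset, 2 are not reported here.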

Additional observations from a re-analysis of the deposited data

How the results depend on the processing

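The place of the pDC genes among all genes depended on the length and the background. The median level of the 8 members, at percentile 48.8 with the longest transcript and protein-coding genes, lay at 41.3 with merged exons, at 57.3 with the median transcript, at 62.7 among all 23004 genes with a length and at 34.5 among the 12262 protein-coding genes with a mean signal of at least 10. The number of members above the median gene was 4 of 8 at first, 7 among all genes with a length (all but *Ccr9*), 3 with merged exons, 4 with the median transcript and 3 with the signal minimum. With the median transcript, 3541 genes were higher than *Tcf4* in place of 7303, and the corresponding counts of the other 7 members stayed within 1.5 times under both other lengths. The signal minimum removes only genes of low signal and so could hardly change these counts. No paired analysis was possible because values of single samples are not in the columns used. Without such values, no replicate could be left out and no spread could be set beside any level, and the low members, such as *Klk1*, have an unknown counting error.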
